A study of Mus musculus with 8 samples.

Results

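The nuclear genes of the mitochondrial respiratory chain and ATP synthase were followed in activated mouse CD4 T cells with and without Bcl6, a transcriptional repressor needed for the follicular helper fate. Members were the genes whose symbol begins with Nduf, Uqcr, Atp5 or Cox followed by a digit from 4 to 8, and the genes Sdha to Sdhd, each from probe sets that name 1 gene. This gave 89 of the 19938 genes on the array. Of these, 34 encode subunits of complex I, 4 of complex II, 8 of complex III, 18 of complex IV and 17 of complex V, and 8 encode assembly factors. In the groups compared, naive CD4 T cells came from wild-type mice (WT) or from mice with a T cell-specific conditional Bcl6-/- genotype (KO), 4 arrays of each; the labels call the cultured cells follicular helper T cells. Cells of both genotypes were activated for 24 hours through CD3 and CD28, with IL-6 and IL-21 added and with IL-4, interferon gamma and TGF beta blocked by antibodies. The strain, age and sex of the mice, the driver of the deletion and whether mice were pooled are not given in the sources used here, and nothing states that each array had a mouse of its own. The p-values therefore rest on the variation among these 8 samples alone, and that variation may be technical.

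Respiration passes electrons from NADH (complex I) or succinate (complex II) through ubiquinone to complex III, then through cytochrome c to complex IV, which reduces oxygen. Complexes I, III and IV pump protons, and the return of these protons drives ATP synthase, complex V. Most subunits are encoded in the nucleus and a few of complexes I, III, IV and V in mitochondrial DNA, while complex II is encoded in the nucleus alone. Assembly factors help to build the complexes. Activated T cells enlarge their mitochondria and use both glycolysis and respiration while they grow.

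The values are the authors' log2 signals on an Affymetrix whole-transcript array, and their precision is limited by the number of arrays. Levels of different probe sets cannot be compared with one another, so each gene is compared only with itself across arrays. Arrays correlated at r between 0.986 and 0.998. KO replicate 1 stood apart: over all tested genes its values lay a median of 0.115 from its group's mean, against 0.035 to 0.0725 in the other 7 arrays, while over the members the figure was 0.0525, within the range of the others (0.0263 to 0.055). Calls that turn on this array, and the larger differences that move with it, are given with and without it. The Bcl6 probe set read 8.61 to 8.91 in the WT-labelled arrays and 9.08 to 9.19 in the KO-labelled arrays. The sources used here do not give the position of this probe set relative to the deleted exons. The higher signal therefore cannot test the genotype labels, and every direction below is that of the arrays as labelled. All 10 measured CD4 T cell markers, Cd4 and Cd3e among them, lay above the expression filter in all 8 arrays, whereas 8 of 9 myeloid, 4 of 5 B cell and 4 of 5 NK cell markers lay under it in every array. The 2 CD8 T cell markers also lay above it in all 8, Cd8a at means of 7.33 (WT) and 7.29 (KO) and Cd8b1 at 9.59 and 9.62. So did the 6 markers of activated T cells. Of these 6, 5 had a positive and 1 a negative difference, and 0 passed limma's threshold. At an unadjusted limma p under 0.05, 2 were higher (33.3%, against 6.15% of all tested genes) and 0 lower (against 10.5%). The mean of the NK cell list ran from 6.03 to 6.19 in WT-labelled and from 5.84 to 6.05 in KO-labelled arrays. Its 1 member above the filter, Nkg7, differed by -0.89 ± 0.233 (SE, limma adjusted p = 0.0947), and its part in the results on the members was not tested.

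Of the 89 members, 86 passed the filter on low values, which asked for a signal over the 40th percentile of its array in 4 or more arrays. 3 members fell in the KO-labelled arrays and 0 rose at a limma adjusted p under 0.05. They were Atp5mpl, a small membrane subunit of ATP synthase, Ndufa4, a subunit of complex IV that was long counted with complex I, and Ndufb6, an accessory subunit in the membrane arm of complex I. The 3 are 3.49% of the tested members, beside 0.671% of the 11926 genes tested that fell and 0.646% that rose, 1.32% in all. Of the 157 genes called, 49.0% were higher, a share that became 61.5% of 78 with each array centred on its median. The signal of Ndufb6 fell by 19.6%, that of Ndufa4 fell by 20.4% and that of Atp5mpl fell by 20.9%. At an unadjusted limma p under 0.05, 17 members were lower (19.8%, against 10.5% of all tested genes) and 5 were higher (5.81%, against 6.15%).

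The members as a whole differed little in direction from other genes. Among the 86, 50 had a negative difference (58.1%, against 57.8% of all tested genes), and the median difference was -0.04, against -0.02 over all tested genes. The groups did not overlap in 14 members that were lower (16.3%, against 7.66% of all tested genes) and in 3 that were higher (3.49%, against 3.1%). Other large families of housekeeping genes had like shares of lower genes without overlap: 11 of 59 cytosolic ribosomal protein genes (18.6%), 11 of 76 mitochondrial ribosomal protein genes (14.5%) and 6 of 37 proteasome subunit genes (16.2%). Calls numbered 0, 0 and 1 in these families. At an unadjusted limma p under 0.05, 14, 14 and 9 were lower (23.7%, 18.4% and 24.3%, against 10.5% of all tested genes). Higher were 1, 6 and 2 (1.69%, 7.89% and 5.41%, against 6.15%). These families were looked at after the members' values were seen, and the difference between them was not tested. In a bulk sample, fewer cells of a type and less RNA per cell cannot be told apart.

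**Figure D1:**
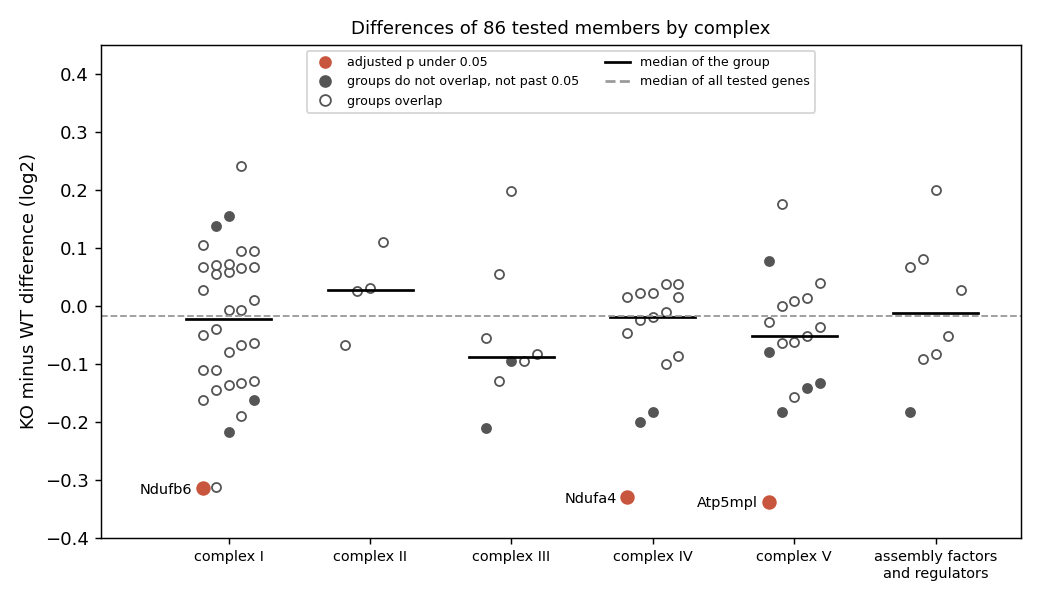
KO minus WT differences on the log2 scale of the 86 tested members, 1 point a gene, by complex; the horizontal axis only separates the groups. The 3 genes past an adjusted p of 0.05 lie lowest in complexes I, IV and V. Group medians run from -0.09 (complex III) to 0.03 (complex II), beside the median of all tested genes at -0.02.

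Upstream sequence is shown for Ndufb6 and Ndufa4, because their transcripts fell, and for Cox6a1 and Atp5g2, because their groups did not overlap and each carries the full NRF1 palindrome, a motif known from promoters of respiratory genes. NRF1 and the ETS factor GABP are textbook activators of this gene family. The windows are the 250 bases before the annotated start, from RefSeq on GRCm38.p6, written 5′ to 3′ on the gene's strand, with matches in capitals. They lie at chr4:40279422-40279671 on the minus strand, chr6:11907451-11907700 on the minus strand, chr5:115348959-115349208 on the minus strand and chr15:102671048-102671297 on the minus strand.
Ndufb6: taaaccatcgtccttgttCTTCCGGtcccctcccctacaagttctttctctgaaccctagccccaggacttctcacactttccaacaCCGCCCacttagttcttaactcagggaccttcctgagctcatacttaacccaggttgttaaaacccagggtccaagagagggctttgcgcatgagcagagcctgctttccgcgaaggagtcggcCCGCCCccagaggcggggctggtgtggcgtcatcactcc
Ndufa4: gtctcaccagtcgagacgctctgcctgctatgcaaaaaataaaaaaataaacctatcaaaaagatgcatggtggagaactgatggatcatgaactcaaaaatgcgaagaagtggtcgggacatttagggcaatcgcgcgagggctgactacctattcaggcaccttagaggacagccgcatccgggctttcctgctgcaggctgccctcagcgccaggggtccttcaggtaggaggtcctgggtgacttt
Cox6a1: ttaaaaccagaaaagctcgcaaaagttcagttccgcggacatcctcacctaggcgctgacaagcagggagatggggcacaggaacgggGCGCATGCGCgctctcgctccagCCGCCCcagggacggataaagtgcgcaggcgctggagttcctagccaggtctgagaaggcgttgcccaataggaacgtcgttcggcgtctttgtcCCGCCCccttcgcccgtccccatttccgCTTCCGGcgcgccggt
Atp5g2: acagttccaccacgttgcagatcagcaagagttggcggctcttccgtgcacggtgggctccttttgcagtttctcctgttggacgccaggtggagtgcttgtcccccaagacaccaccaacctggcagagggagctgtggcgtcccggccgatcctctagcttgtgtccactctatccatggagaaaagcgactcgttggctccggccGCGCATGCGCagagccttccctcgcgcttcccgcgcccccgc

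4 motifs were searched on both strands: the NRF1 palindrome, which is the longest run of capitals in the Cox6a1 and Atp5g2 windows, CCGGAAG (ETS factors), GGGCGG (Sp factors) and the BCL6 consensus. Capitals in the Ndufb6 window mark 1 ETS and 2 Sp matches, those in the Cox6a1 window 1 NRF1, 1 ETS and 2 Sp matches, and those in the Atp5g2 window 1 NRF1 match. The Ndufa4 window holds no match, and no matches overlap in the 4 windows. RefSeq promoters were found for 73 of the 89 members, Atp5mpl not among them, 78 windows in all. The NRF1 palindrome was in 5 of these 78 windows (6.41%), against 0.782% of 32851 mouse promoter windows of the same length, and the ETS motif was in 13 (16.7%, against 6.91%). Sp matches were in 37.2% of member windows (32.7% of all), and the windows' GC content was 56.7% against 53.2%. The BCL6 motif was in 1 window, that of Ndufa8 (1.28%, against 1.31% of all promoters). The 5 windows with the palindrome belong to Atp5g2, Atp5k, Cox6a1, Ndufa11 and Ndufaf4. Among these genes Cox6a1 and Atp5g2 were lower without overlap, and the groups overlapped in the other 3. Lower without overlap were 16.3% of the tested members and 7.66% of all tested genes. The palindrome was in 2 of the 13 windows of members lower without overlap, and in 0 of the 3 windows of members higher without overlap. Whether the motif goes with a difference was not tested. The motifs were chosen after the members' values were seen, and a match describes letters in a window and is not evidence of binding.

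Complex I, the NADH dehydrogenase, held differences in both directions. Of its 34 tested subunits, 19 had a negative difference (55.9%, against 57.8% of all tested genes) and 15 a positive one. Differences ran from -0.32 to 0.24, with a median of -0.02. Ndufb6 fell, and no other subunit of the complex passed. At an unadjusted limma p under 0.05, 7 were lower (20.6%, against 10.5% of all tested genes) and 2 higher (5.88%, against 6.15%).

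Ndufb6 read 12.71, 12.57, 12.56 and 12.52 in WT replicates 1 to 4 and 12.20, 12.26, 12.25 and 12.39 in KO replicates 1 to 4. Every KO-labelled value lay under every WT-labelled value. The mean went from 12.6 ± 0.0829 to 12.3 ± 0.0810 (SD, n = 4). The difference was -0.32 ± 0.0593 (SE) with an adjusted p of 0.0423 in limma. An exact two-sided permutation test gave 0.0286, which is the lowest value possible with 4 arrays a group.

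Ndufab1, the mitochondrial acyl carrier protein that is also a complex I subunit, lay just outside the threshold and was singled out after its values were seen. It read 11.20, 11.14, 11.20 and 11.26 in the WT-labelled and 10.97, 11.03, 10.96 and 10.97 in the KO-labelled arrays, so the groups stood clear of each other. The difference was -0.22 ± 0.0446 (SE, limma adjusted p = 0.05004, not under the threshold), and its second probe set gave -0.19. Ndufa6, an accessory subunit of the matrix arm, also showed no overlap (difference -0.16, adjusted p = 0.202).

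Of the 34 complex I genes, 3 stood lower without overlap (8.82%, against 7.66% of all tested genes). Higher without overlap were 2 (5.88%, against 3.1%), Ndufc1 and Ndufb11. Ndufc1, a small accessory subunit, read 11.02, 10.96, 10.86 and 10.99 in the WT-labelled and 11.07, 11.10, 11.10 and 11.18 in the KO-labelled arrays (difference 0.16 ± 0.0504, SE, limma adjusted p = 0.161). Its second probe set differed by 0.25 in the same direction. Ndufb11, an accessory subunit of the membrane arm, read 11.81 to 11.99 in the WT-labelled and 12.03 to 12.06 in the KO-labelled arrays (difference 0.14 ± 0.0495, adjusted p = 0.203), and its second probe set differed by 0.14. Neither Ndufc1 nor Ndufb11 passed the threshold, so they do not count as changed.

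Ndufa1 and Ndufs5 also had large differences in complex I, but each varied widely among the arrays of a genotype. Ndufa1, a small membrane subunit, differed by -0.31 ± 0.130 (SE, limma adjusted p = 0.263). KO replicate 1 read 8.89 there and the other KO-labelled arrays 9.28, 9.34 and 9.62, against 9.48 to 9.71 in WT. Without KO replicate 1 the difference of Ndufa1 was -0.18 (limma adjusted p = 0.206). Ndufs5, a subunit on the intermembrane side, had the largest positive difference and the largest spread of all tested members (pooled SD 0.263). It read 9.72, 9.03, 9.10 and 9.68 in the WT-labelled and 9.54 to 9.67 in the KO-labelled arrays, so WT replicates 2 and 3 alone were low (difference 0.24, adjusted p = 0.486).

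The core subunits, which carry the flavin, the iron-sulfur clusters and the ubiquinone site, moved little. Of the 6 core genes among the members, 0 passed limma's test (0 also at an unadjusted p under 0.05). Ndufv1, which binds the flavin that accepts electrons from NADH, differed by 0.07, and the iron-sulfur subunits Ndufv2 and Ndufs1 by -0.08 and -0.13. Ndufs7 and Ndufs8, whose clusters lead to ubiquinone, differed by 0.07 and -0.01, and Ndufs3 by -0.04. Without KO replicate 1 the difference of Ndufs1 was -0.08. The limma adjusted p of the 6 lay between 0.401 and 0.965.

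**Figure D2:**
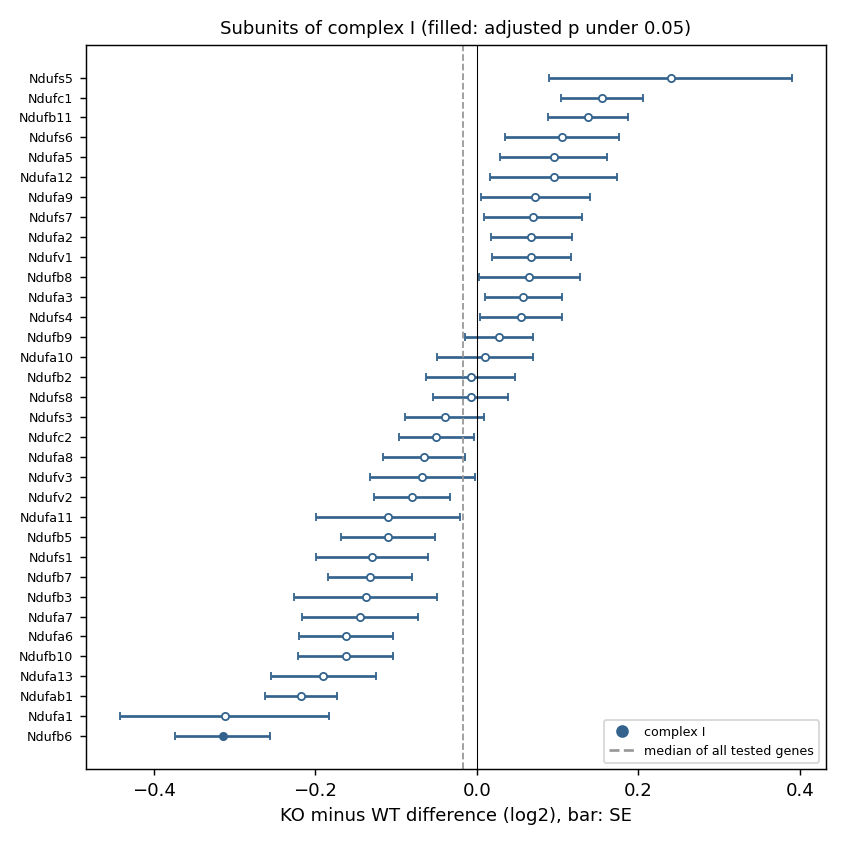
KO minus WT difference on the log2 scale (horizontal axis) with its SE for each of the 34 tested complex I subunits, ordered by difference. Ndufb6 at -0.32 is the 1 filled point, and the differences run from there to Ndufs5 at 0.24, whose error bar is the widest.

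Complex II, the succinate dehydrogenase shared with the TCA cycle, showed no call among its 4 subunits in limma (0 also at an unadjusted p under 0.05). The catalytic flavoprotein gene Sdha read 11.87, 11.85, 11.91 and 11.91 in WT and 11.80, 11.88, 12 and 11.96 in KO-labelled arrays (difference 0.03 ± 0.0530, SE). The iron-sulfur subunit gene Sdhb differed by 0.03 ± 0.0529, and the membrane anchors Sdhc and Sdhd by 0.11 ± 0.0609 and -0.07 ± 0.0758. The groups overlapped in all 4, with limma adjusted p from 0.419 to 0.885.

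In complex III, the cytochrome bc1 complex, 6 of 8 subunits had a negative difference (75%, against 57.8% of all tested genes), with a median of -0.09. None passed limma's threshold. At an unadjusted limma p under 0.05, 2 were lower (25%, against 10.5% of all tested genes) and 1 higher (12.5%, against 6.15%). Uqcr10, a small subunit, read 10.73, 10.74, 10.68 and 10.56 in WT and 10.49, 10.55, 10.32 and 10.51 in KO-labelled arrays. All 4 KO-labelled values were lower than the lowest WT-labelled value, by a margin of 0.01 at the closest. The difference was -0.21 ± 0.0638 (SE, limma adjusted p = 0.140). Uqcrc2, a core protein of the complex, was lower without overlap by a small amount, from 12.8 ± 0.0216 to 12.7 ± 0.0311 (SD, n = 4, adjusted p = 0.283), whereas its partner Uqcrc1 differed by 0.06.

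Uqcrb, the ubiquinone-binding subunit, stood the other way. It read 12.87, 12.85, 12.77 and 12.81 in WT and 12.87, 13.04, 13.05 and 13.13 in KO-labelled arrays. KO replicate 1 lay at the top of the WT range and the other 3 above it. The difference was 0.20 ± 0.0599 (SE, limma adjusted p = 0.140), and both other probe sets of the gene were higher, by 0.17 and 0.23. Without KO replicate 1 the difference was 0.25 and the gene passed (limma adjusted p = 0.0163). Uqcr11, another small subunit, differed by -0.13 (adjusted p = 0.629), with KO replicate 3 at 11.10 and the other KO-labelled arrays at 10.56 to 10.68. The Rieske iron-sulfur protein gene Uqcrfs1 differed by -0.06.

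Complex IV, the cytochrome c oxidase, exists in ubiquitous and tissue-restricted forms. 10 ubiquitous subunits were tested; the gene of another, Cox7c, lay only on probe sets that name several genes. Among the 10, Ndufa4 fell and 0 rose. At an unadjusted limma p under 0.05, 3 were lower (30%, against 10.5% of all tested genes) and 0 higher (against 6.15%).

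Ndufa4 read 11.21, 11.03, 11.02 and 11.12 in WT replicates 1 to 4 and 10.70, 10.77, 10.71 and 10.88 in KO replicates 1 to 4. The highest KO-labelled value lay 0.14 under the lowest WT-labelled value. The mean went from 11.1 ± 0.0889 to 10.8 ± 0.0827 (SD, n = 4). This is a step of -0.33 ± 0.0609 (SE), with a limma adjusted p of 0.0415 and the same exact permutation p of 0.0286.

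The other ubiquitous subunits fell into a pair of lower genes and a group close to 0. Cox6a1 read 11.92, 11.86, 11.89 and 11.90 in WT and 11.82, 11.69, 11.62 and 11.64 in KO-labelled arrays (difference -0.20 ± 0.0529, SE, limma adjusted p = 0.0972). Cox5a read 11.15, 11.14, 11.11 and 11.18 against 10.91, 10.97, 10.95 and 11.02 (difference -0.18 ± 0.0438, adjusted p = 0.0782). Neither overlapped between groups and neither passed over the 8 arrays; without KO replicate 1 both did (limma adjusted p = 0.0118 and 0.0469). Cox4i1, the regulatory subunit that binds nucleotides, differed by -0.09. Cox5b, Cox6b1, Cox6c, Cox7a2, Cox7b and Cox8a lay between -0.03 and 0.04.

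Tissue-restricted forms gave no call. Cox7b2 and Cox8c, known from testis, Cox6a2, Cox7a1 and Cox8b, known from heart and skeletal muscle, Cox6b2, and the lung and hypoxia-linked forms Cox4i2 and Ndufa4l2 were all on the array. Cox7b2, Cox6b2 and Cox8b did not pass the filter and were not tested; Cox7b2 lay under it in all 8 arrays (5.09 to 5.23 in WT, 5.23 to 5.62 in KO-labelled arrays). Of the 5 tested, differences ran from -0.10 (Ndufa4l2) to 0.04 (Cox8c), with 0 at an unadjusted limma p under 0.05. Without KO replicate 1, Ndufa4l2 differed by -0.21 (limma adjusted p = 0.132), and Cox8c and Cox6a2 changed sign, to -0.06 and -0.06. Ndufa4l2 and Cox7a1 lay above the filter in 4 arrays each, and Cox4i2, Cox6a2 and Cox8c in all 8.

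Complex V, the ATP synthase, had 17 tested subunits, with a median difference of -0.05. Of these, 11 had a negative difference (64.7%, against 57.8% of all tested genes) and 5 a positive one. Atp5mpl fell and 0 rose. At an unadjusted limma p under 0.05, 4 were lower (23.5%, against 10.5% of all tested genes) and 1 higher (5.88%, against 6.15%). Atp5mpl, now named Atp5mj, read 11.60, 11.43, 11.45 and 11.51 in WT replicates 1 to 4 and 11.22, 11.16, 11.06 and 11.20 in KO replicates 1 to 4. The gap between the groups was 0.21. The mean went from 11.5 ± 0.0763 to 11.2 ± 0.0712 (SD, n = 4). The step of -0.34 ± 0.0559 (SE) was the largest fall among the tested members (adjusted p of 0.0258 in limma, exact permutation p of 0.0286).

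The catalytic F1 head did not move in 1 direction. Atp5c1, the gamma subunit that turns inside the head, read 12.37, 12.25, 12.25 and 12.28 in WT and 12.12, 12.06, 12.08 and 12.16 in KO-labelled arrays (difference -0.18 ± 0.0475, SE, limma adjusted p = 0.0933). Atp5e, the epsilon subunit of the rotor, differed by -0.14 without overlap (adjusted p = 0.168). Atp5b, the catalytic beta subunit, was higher without overlap, from 13.53 to 13.57 in WT to 13.58 to 13.68 in KO-labelled arrays, but by 0.08 (adjusted p = 0.413). Atp5a1, the alpha subunit, differed by -0.07. Atp5d, the delta subunit, had the smallest spread of all tested members (pooled SD 0.0177) and differed by 0.01 ± 0.0396.

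Atp5g1, Atp5g2 and Atp5g3 encode the same mature c subunit of the proton-driven ring. Atp5g2 read 13.40, 13.32, 13.34 and 13.39 in WT and 13.31, 13.26, 13.25 and 13.31 in KO-labelled arrays, a step of -0.08 without overlap (limma adjusted p = 0.403), and its other probe sets differed by -0.10 and -0.08. Atp5g1 and Atp5g3 differed by 0.04 and 0.01, with overlap. None of the 3 passed (0 at an unadjusted limma p under 0.05).

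The 4 genes of the peripheral stalk, which holds the head against rotation, all had a negative difference, from -0.13 (Atp5o) to -0.03 (Atp5j). Of all tested genes, 57.8% had a negative difference. None passed limma's threshold. By the probe sets that stood for the genes, Atp5o alone had an unadjusted limma p under 0.05 (adjusted p = 0.216) and no overlap. The other probe set of Atp5pb differed by -0.115 (exact permutation p = 0.0286), against -0.04 for the one that stood for it. Those of Atp5h differed by -0.025 and -0.045. Among the small membrane subunits beside Atp5mpl, Atp5md, known as DAPIT, read 12.93, 12.89, 12.73 and 12.94 in WT and 12.88, 13.11, 13.09 and 13.11 in KO-labelled arrays. KO replicate 1 lay among the WT-labelled values and the other 3 above them. The difference was 0.18 ± 0.0695 (SE, limma adjusted p = 0.242); without KO replicate 1 it was 0.23 and passed (adjusted p = 0.0419). Atp5l differed by -0.16 (limma adjusted p = 0.433), and its 5 other probe sets by -0.18 to -0.22.

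**Figure D3:**
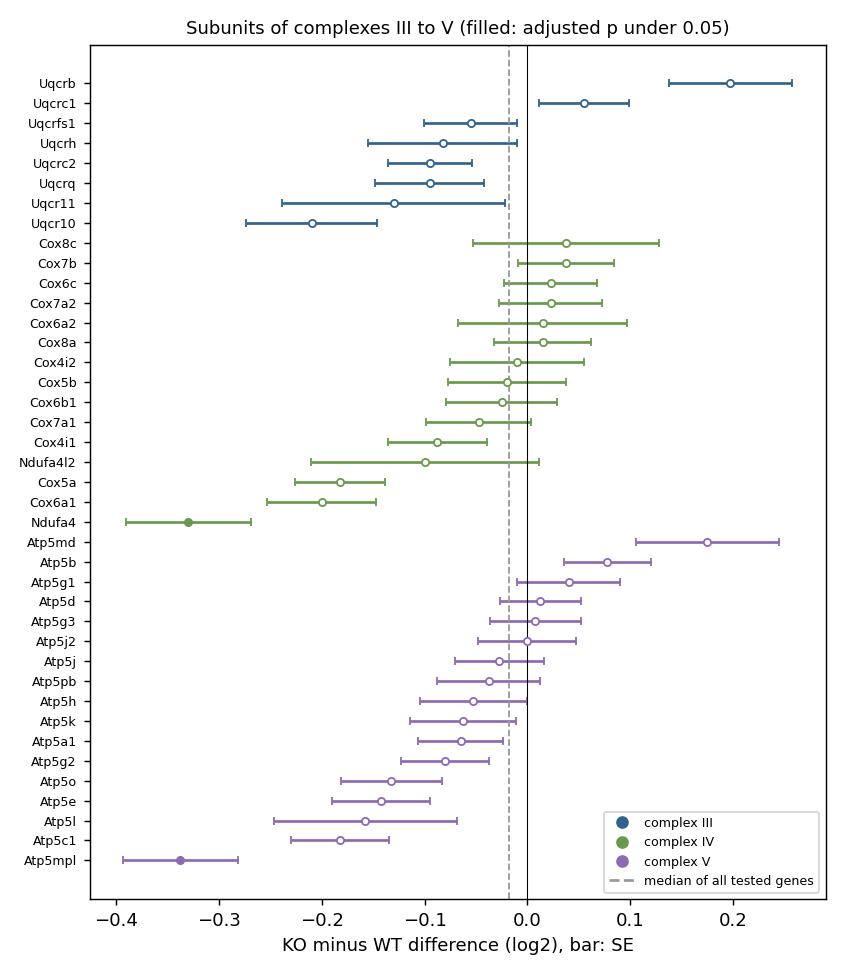
KO minus WT difference on the log2 scale (horizontal axis) with its SE for the tested subunits of complexes III, IV and V, ordered within each complex. Ndufa4 at -0.33 and Atp5mpl at -0.34 are filled, and Uqcrb at 0.20 and Atp5md at 0.18 lie at the other end of their complexes.

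**Figure D4:**
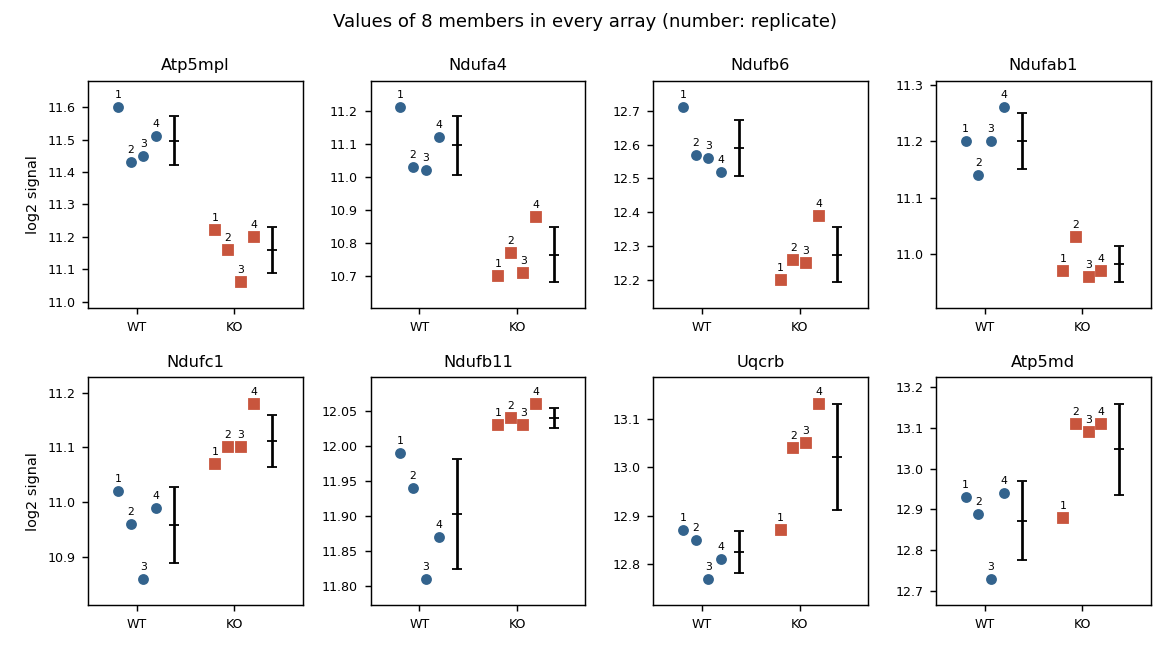
The log2 signal of 8 members in every array (circles WT-labelled, squares KO-labelled, numbers the replicate), with mean and SD (n = 4) at the right of each group; each panel has its own scale. Atp5mpl, Ndufa4, Ndufb6 and Ndufab1 are lower in all 4 KO-labelled arrays, Ndufc1 and Ndufb11 are higher in all 4, and for Uqcrb and Atp5md KO replicate 1 lies within the WT-labelled values.

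The assembly factors within the symbol pattern, 7 Ndufaf genes of complex I and the supercomplex factor Cox7a2l, split into 4 positive and 4 negative differences with a median of -0.01. None passed limma's threshold. At an unadjusted limma p under 0.05, 1 was higher (12.5%, against 6.15% of all tested genes) and 1 lower (12.5%, against 10.5%). Ndufaf3 was lower without overlap, at 9.58 to 9.74 in WT and 9.44 to 9.55 in KO-labelled arrays (difference -0.18 ± 0.0538, SE, limma adjusted p = 0.129). Ndufaf2 read 9.0, 8.92, 9.0 and 8.78 in WT and 9.0, 9.16, 9.14 and 9.20 in KO-labelled arrays (difference 0.20 ± 0.0653, adjusted p = 0.161), and passed without KO replicate 1 (adjusted p = 0.0422). Ndufaf1 differed by -0.09 and Ndufaf6 by 0.08, and both turned on the same array: without it they differed by -0.0025 and 0.19 (limma adjusted p = 0.984 and 0.181).

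The members' median shifted little from array to array. The median deviation of the 86 tested members from their own means was 0.0569 in WT replicate 1, 0.00875, 0.0156 and -0.00812 in WT replicates 2 to 4, and -0.04, -0.0206, -0.02 and 0.0075 in KO replicates 1 to 4. WT replicate 1 was the highest of the 8 arrays for 24 members, and KO replicate 1 the lowest for 22. KO replicate 4 was the highest for 20 and WT replicate 4 the lowest for 21, so arrays of both genotypes stood at both ends. The median over complex III ran from -0.0025 to 0.0625 in WT and from -0.0431 to -0.0225 in KO-labelled arrays, without overlap. For complex V the ranges were 0.00625 to 0.055 and -0.0575 to -0.0075, also without overlap, whereas the ranges overlapped for complexes I and II and the assembly factors, and met at 0.00625 for complex IV. Over all tested genes KO replicate 1 was at -0.06, the lowest of the arrays.

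**Figure D5:**
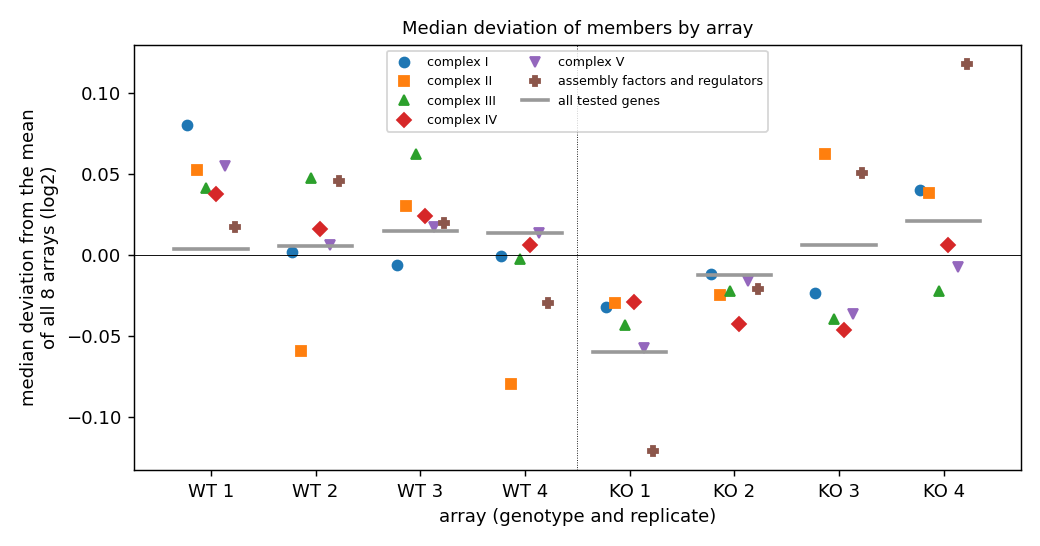
Median deviation (log2) of the tested members of each complex from their means over the 8 arrays, for each array; grey bars give the same over all tested genes. Assembly factors run from -0.121 in KO replicate 1 to 0.118 in KO replicate 4, a wider range than any complex, and complex III and V medians are lower in all 4 KO-labelled arrays than in any WT-labelled array.

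The calls turned on single arrays. Without KO replicate 1, 8 members were lower (9.3% of the tested members, against 2.67% of all tested genes) and 3 higher (3.49%, against 3.88%). The 8 were Atp5mpl, Ndufa4, Ndufb6, Ndufab1, Ndufa13, a membrane subunit also known as GRIM-19, Cox6a1, Cox5a and Atp5c1, and the 3 were Uqcrb, Atp5md and Ndufaf2. When any 1 of the 4 WT-labelled arrays was left out, and likewise KO replicate 2 or KO replicate 3, no member passed limma's threshold, and the 157 called genes over the whole array came down to between 31 and 107. Without KO replicate 4, Ndufa4 and Ndufb6 passed and Atp5mpl did not. In the 8 fits the difference of Atp5mpl stayed between -0.36 and -0.30 (limma adjusted p 0.00933 to 0.105), that of Ndufa4 between -0.37 and -0.29 (0.0207 to 0.133) and that of Ndufb6 between -0.35 and -0.28 (0.0213 to 0.145).

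A second look at the same genes came from the 17 members with more than 1 probe set. Of their 25 other probe sets, 23 had a difference of the same sign as the one that stood for the gene, 1 the opposite sign (Cox7b, -0.005 against 0.04) and 1, of Cox7a2l, a difference of 0. Probe sets that carry the same symbol can share sequence with each other or with processed copies of the gene, so they are not independent measurements.

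Genes of the pathway outside the symbol pattern held no call in limma. Of 35 further assembly factors measured (Sdhaf, Surf1, Sco, Cox10 to Cox20 and the like), 21 had a negative difference (60%, against 57.8% of all tested genes) and 13 a positive one. At an unadjusted limma p under 0.05, 3 were lower (8.57%, against 10.5%) and 0 higher (against 6.15%). Cox14, which helps to make the first subunit of complex IV, had the smallest p (difference -0.24, limma adjusted p = 0.0898). Sdhaf4, named after its values were seen, had the largest difference of the list. It differed by -0.38 ± 0.113 (SE, limma adjusted p = 0.132), and its groups overlapped. Cyc1, the cytochrome c1 subunit of complex III, differed by 0.05, and Cycs, cytochrome c itself, by 0.15 (adjusted p = 0.195). Of 12 TCA cycle genes, 10 had a negative difference (83.3%, against 57.8% of all tested genes), with a median of -0.08. At an unadjusted limma p under 0.05, 2 were lower (16.7%, against 10.5%) and 0 higher (against 6.15%). Without overlap, 3 were lower (25%, against 7.66%) and 0 higher (against 3.1%). Dlst, a subunit of the oxoglutarate dehydrogenase complex, had the smallest p (difference -0.14, limma adjusted p = 0.214).

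Among 12 tested regulators of respiratory genes, Tfb1m, a methyltransferase of mitochondrial ribosomal RNA, was higher without overlap at 10.6 ± 0.0903 against 10.4 ± 0.0299 (SD, n = 4; difference 0.25, limma adjusted p = 0.0542), the only 1 of the 12 with an unadjusted p under 0.05. Ppargc1a, the coactivator PGC-1 alpha, lay under the filter in all 8 arrays. Myc differed by -0.05. Of 7 carriers and pores and 6 genes that remove superoxide and peroxide, 0 passed limma's threshold (0 also at an unadjusted p under 0.05). Slc25a5, an ADP/ATP carrier, was at -0.07 and Prdx3, the mitochondrial peroxiredoxin, at -0.09.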

How the data were processed

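The authors deposited log2 values, 1 per probe set and array with 2 decimals; RMA and Partek are named in the submitters' processing notes, with versions not given in the sources used here. RMA brings arrays to nearly equal distributions, which hides any shift in the RNA content of a cell. Of 35556 probe sets, the platform annotation gave 1 symbol for 21789 (19938 genes), several for 1621 and none for 12146; 6 matching probe sets with several symbols were left out. The probe set with the highest mean stood for a gene. Genes were tested where the value exceeded the array's 40th percentile, taken over probe sets with 1 symbol, in at least 4 arrays (11926 genes; Bcl6 was kept). KO minus WT was tested with limma 3.58.1 in R 4.3.3 (no block, two-sided, Benjamini-Hochberg over all tested genes, threshold 0.05), with an exact two-sided permutation test for single genes. The steps were tested on simulated data, in which the share of false calls lay above the nominal level in every simulation, so adjusted p-values close to the threshold are to be read with caution. Groups came from the sample labels.

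The members and lists were chosen with earlier results of these data known. By rule, every member past the threshold, the 2 largest rises and 2 largest falls per group, complex II, the core subunits of complex I, the c-ring genes, the tissue-restricted forms, the members with the largest and smallest spread and the untested members were named (41 genes), and in other lists the gene with the smallest p; further members were named after their values were seen.

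Alternatives were other normalizations and filters, averaging a gene's probe sets, limma's array weights, its intensity trend with robust prior, a block on the replicate number, Ndufa4 counted with complex I, and each array left out. Added after seeing the data were 2 other bases for the percentile and leaving out KO replicate 1 together with WT replicate 3. The base for the percentile was itself settled with counts in view: over all probe sets it gave 12573 tested and 111 called genes, over genes 11998 and 141, and over probe sets with 1 symbol 11926 and 157. The last was kept because an earlier processing of these data used those numbers; Atp5mpl, Ndufa4 and Ndufb6 were the members called with each.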

Additional observations from a re-analysis of the deposited data

Results flagged for a closer look

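In 6 of 96 groups of 4 arrays, 1 array lay far from the other 3; chance gives about 1 in 20 such groups. WT replicate 4 read 12.55 for Atp5g3, against 12.65 to 12.66 in the other WT-labelled arrays. WT replicate 3 read 13.15 for Cox7b (others 13.27 to 13.28) and 7.22 for Ndufa4l2 (others 6.98 to 7.02). KO replicate 1 read 12.88 for Atp5md (others 13.09 to 13.11) and 5.62 for Cox7b2 (others 5.23 to 5.29), a gene under the filter in every array. The median deviation of the complex I members was 0.0806 in WT replicate 1, against -0.00625 to 0.00188 in the other WT-labelled arrays.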

How the results depend on the processing

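The 3 falls kept their direction in every alternative run, but not their calls. Members called lower numbered 5 after further quantile normalization, 1 with each array centred on its median, 0 with no filter, 4 with the filter at the 50th percentile, 7 with an intensity trend and robust prior, 14 (with 4 higher) with array weights, 3 with the mean over probe sets and 4 (with 1 higher) without both KO replicate 1 and WT replicate 3. Over all tested genes, higher and lower calls were 173 and 149 (quantile), 48 and 30 (centred), 37 and 21 (no filter), 151 and 203 (trend), 1010 and 970 (array weights), 90 and 139 (50th percentile), 64 and 59 (mean over probe sets) and 293 and 150 (both arrays left out). Taking the percentile over all probe sets gave 60 and 51. With no filter 19938 genes entered the adjustment, and the SE of Atp5mpl was 0.0602, against 0.0559 in the main fit. What caused the changes in calls was not tested for any setting. With the replicate number as a block, 0 members were lower and 25 genes were higher and 11 lower over the whole array. Same-numbered arrays correlated at 0.0111, 0.145, -0.174 and 0.308 in their deviations. Arrays of different number ran from -0.421 (WT replicate 3 with KO replicate 4) to 0.46 (WT replicate 3 with KO replicate 1). The numbers were therefore not taken to pair the samples, and what the arrays of different number share was not tested.

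With 1 array left out in turn, members called ranged from 0 to 3 higher and from 0 to 8 lower, and all tested genes from 22 to 463 higher and from 9 to 319 lower. Medians ranged from -0.095 to -0.06667 (complex III), -0.03417 to 0.003333 (complex IV) and -0.065 to -0.02583 (complex V). The complex IV median was 0.0025 with no filter and -0.04857 with array weights, and that of complex III was -0.05667 without both arrays, so the sign for complex IV is not settled. Nor is that for the assembly factors, whose median was -0.0125 in the main fit. It was 0.01102 after further quantile normalization, 0.006167 with array weights and 0.007083 without KO replicate 1. Counting Ndufa4 with complex I gave medians of -0.04 (I) and -0.015 (IV). Among 40 named members, 0 to 4 per setting that had not passed changed sign. With 4 arrays a group, small differences are beyond the precision of these data.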
